A study of Homo sapiens with 8 samples.

Results

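The accessible chromatin around 5 genes for inhibitors of cyclin-dependent kinases, CDKN2A, CDKN2B, CDKN1A, CDKN1B and CDKN1C, was followed while the remodelling subunit SMARCB1 was restored to rhabdoid tumour cells. Within the windows, peaks were taken by position and not by height, while the genes and windows themselves were chosen with earlier results of these data known. The peaks are all deposited peaks in 4 windows of the hg19 genome: chr9:21850000-22200000 (350 kb, CDKN2A and CDKN2B), chr6:36550000-36750000 (200 kb, CDKN1A), chr12:12800000-12950000 (150 kb, CDKN1B) and chr11:2850000-2960000 (110 kb, CDKN1C). The windows hold 307 of the 411408 peaks. Peaks of different days that shared at least 1 bp were merged, which gave 106 of the 146099 merged regions: 27 around CDKN2A and CDKN2B, 36 around CDKN1A, 25 around CDKN1B and 18 around CDKN1C. No peak crossed the edge of a window.

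The assay was ATAC-seq, which reads open DNA by where a transposase can insert its adapters, on G401, an established line grown from a kidney rhabdoid tumour. Its cells lack SMARCB1, one of the core proteins of the SWI/SNF (BAF) remodelling complex. All cells came from a stable derivative of G401 with an inducible SMARCB1, kept in Tet-free serum. Day 0 cells, labelled SMARCB1 -/-, were not induced, and the cells of days 1, 3 and 7, labelled SMARCB1 +/+, had 1 µg/ml doxycycline for that time. Each day has 2 replicates, 8 samples in all, but the values analysed here are 1 peak list per day, and the day 0 list was identified by elimination, since its name has no key in the labels. No value therefore has a replicate error, and no comparison between days could be tested. None of the samples analysed here had doxycycline without SMARCB1, so the drug and SMARCB1 cannot be told apart, nor can more open cells be told apart from more open chromatin in each cell. Whether the line is 1 clone is not stated in the labels.

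Inhibitors of the INK4 family, p16INK4a and p15INK4b, bind CDK4 and CDK6 and keep them from pairing with D-type cyclins, so that the retinoblastoma protein stays active and holds cells before DNA synthesis. CDKN2A also encodes p14ARF from a separate first exon, and p14ARF stabilises p53 by binding MDM2. The CIP/KIP family, p21 (CDKN1A), p27 (CDKN1B) and p57 (CDKN1C), binds cyclin-CDK complexes more broadly, those of CDK2 included, and CDKN1A is a classic target of p53. In rhabdoid cells, the return of SMARCB1 is known to stop the cell cycle, with p16INK4a and p21 among the inhibitors studied in that arrest.

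The promoters of the INK4 genes, with both starts of CDKN2A, and of CDKN1A are shown. Open regions lay at or near the starts of these genes on every day. They also lay at the starts of CDKN1B and CDKN1C, whose promoters are not shown. The promoters shown are 300 bases each, 250 before and 50 after the start, from RefSeq with the build GRCh38.p14, whose positions were not converted to hg19. Capitals mark the GC box GGGCGG or its complement CCGCCC, the letters bound by SP1-like factors.
CDKN2A, p14ARF start, chr9:21995275-21995574, minus strand: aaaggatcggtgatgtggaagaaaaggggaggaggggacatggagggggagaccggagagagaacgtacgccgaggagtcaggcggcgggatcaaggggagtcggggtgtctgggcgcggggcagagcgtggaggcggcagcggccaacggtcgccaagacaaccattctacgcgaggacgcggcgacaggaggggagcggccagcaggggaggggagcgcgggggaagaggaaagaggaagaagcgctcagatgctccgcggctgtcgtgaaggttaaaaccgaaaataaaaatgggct
CDKN2A, p16INK4a start, chr9:21974808-21975107, minus strand: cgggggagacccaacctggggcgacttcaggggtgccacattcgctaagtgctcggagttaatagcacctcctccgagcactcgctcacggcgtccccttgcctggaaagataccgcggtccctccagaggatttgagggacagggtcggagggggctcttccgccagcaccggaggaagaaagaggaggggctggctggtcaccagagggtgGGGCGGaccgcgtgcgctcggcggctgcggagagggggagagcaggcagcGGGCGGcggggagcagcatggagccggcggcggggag
CDKN2B, chr9:22009256-22009555, minus strand: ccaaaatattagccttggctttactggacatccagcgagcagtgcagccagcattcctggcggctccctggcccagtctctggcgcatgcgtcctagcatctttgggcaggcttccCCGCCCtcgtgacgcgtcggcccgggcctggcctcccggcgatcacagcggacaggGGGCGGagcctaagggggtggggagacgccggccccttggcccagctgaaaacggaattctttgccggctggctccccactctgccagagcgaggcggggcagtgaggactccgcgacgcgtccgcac
CDKN1A, chr6:36678464-36678763, plus strand: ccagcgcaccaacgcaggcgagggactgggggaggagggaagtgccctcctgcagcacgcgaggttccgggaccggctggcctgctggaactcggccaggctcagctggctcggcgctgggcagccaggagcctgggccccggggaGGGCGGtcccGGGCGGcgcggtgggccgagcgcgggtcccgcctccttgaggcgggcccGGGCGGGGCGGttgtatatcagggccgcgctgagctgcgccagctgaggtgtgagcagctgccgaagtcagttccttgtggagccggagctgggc

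Of the 5 genes, 4 had an entry in the promoter table, with 5 promoters in all, since CDKN2A had 2. Each of these 5 promoters had more CpG than 68% (CDKN2B) to 75.8% (CDKN1A and CDKN1B) of all promoters in the table. They held 28 CpG at the p14ARF start, 26 at the p16INK4a start, 25 at CDKN2B and 29 each at CDKN1A and CDKN1B, against a median of 14 over the 35116 promoters of the table. Their G and C content ran between 62.3% (CDKN1B) and 74.3% (CDKN1A), against a median of 58.7%. GC boxes, searched on both strands with overlapping matches counted, numbered 4 at CDKN1A, 2 at the p16INK4a start, 2 at CDKN2B, 1 at CDKN1B and 0 at the p14ARF start, and 45% of all promoters held at least 1. The AP-1 letters TGANTCA, searched on both strands, were in 0 of the 5 windows and in 7.71% of all promoters. CCAAT was found 3 times in the CDKN1B promoter, 0 times in the other 4, and in 34.6% of all promoters. TATAAA (11.5% of all promoters) and the E-box CACGTG (7.26%) were in none of the 5. A match in these letters is not a measured binding site.

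Heights are given as summit reads, the number of reads stacked at the top of a peak, which was recovered from the deposited fold and p-value. To compare days, summit reads were scaled: each was divided by its list's background across the genome, which was 6.34, 6.04, 6.73 and 6.10 reads on days 0, 1, 3 and 7. The result, the scaled summit, is a height in multiples of background. The ratio of 2 days is that of scaled summits, induced day over day 0, with an exact 95% interval that covers counting error only. "Called" means past 1.5-fold. The lists held 80744, 109876, 117606 and 103182 peaks on days 0, 1, 3 and 7, and their smallest summits 18, 16, 17 and 18 reads.

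The starts of all 5 genes lay in or beside open chromatin before SMARCB1 came back, and none of the start regions was called higher or lower on any induced day. At CDKN2A the region over the outer start, used by p14ARF, spanned chr9:21993871-21995851 and held 167, 153, 150 and 145 summit reads on days 0, 1, 3 and 7. Its scaled summits were 26.3, 25.3, 22.3 and 23.8, and the ratios to day 0 were 0.962 (0.767 to 1.20), 0.847 (0.675 to 1.06) and 0.903 (0.718 to 1.13) on days 1, 3 and 7. The 3 induced values were thus all below day 0, each by less than its counting error. CDKN2B-AS1, a long noncoding RNA gene, starts 0.533 kb away on the other strand in GRCh38, so this region cannot be assigned to either gene alone.

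A lower region lay inside CDKN2A at chr9:21974374-21975830, 19.5 kb into the gene from its outer start. In GRCh38 the p16INK4a start is 20.5 kb from the p14ARF start, and the summits of the 2 hg19 regions were 19.4 to 19.6 kb apart. It held 66, 76, 77 and 64 reads, scaled to 10.4, 12.6, 11.4 and 10.5 on days 0, 1, 3 and 7. Ratios to day 0 were 1.21 (0.858 to 1.71), 1.10 (0.782 to 1.55) and 1.01 (0.704 to 1.44). This was the only one of the 6 plotted gene regions whose ratio was above 1 on all 3 induced days, and each interval included 1. Between the 2 lay a region at chr9:21986780-21987577, 7.49 kb into the gene, that was called lower. It held 54, 33, 33 and 40 reads, scaled to 8.51, 5.46, 4.91 and 6.56, with ratios of 0.641 (0.403 to 1.01), 0.576 (0.362 to 0.905) and 0.770 (0.499 to 1.18) on days 1, 3 and 7. On day 3 the region had 2 peaks, and the higher summit lay at another place than on day 0. The peak nearest to the day 0 summit gave a day 3 ratio of 0.541. By the deposited fold, which divides the summit by the background around it, the ratios were 0.645, 0.697 and 0.835, so the day 3 call ended, and the interval of the day 1 call included 1. CDKN2A thus had 3 regions on all 4 days, and their ratios to day 0 were not alike.

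CDKN2B encodes p15INK4b, the neighbouring INK4 inhibitor. Its start region, chr9:22008551-22009818, was the highest of the chromosome 9 window, with 199, 200, 194 and 182 reads scaled to 31.4, 33.1, 28.8 and 29.8 on days 0, 1, 3 and 7. Ratios to day 0 were 1.05 (0.863 to 1.29), 0.919 (0.751 to 1.13) and 0.951 (0.773 to 1.17). The CDKN2B start was thus within counting error of day 0 on each induced day.

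**Figure D1:**
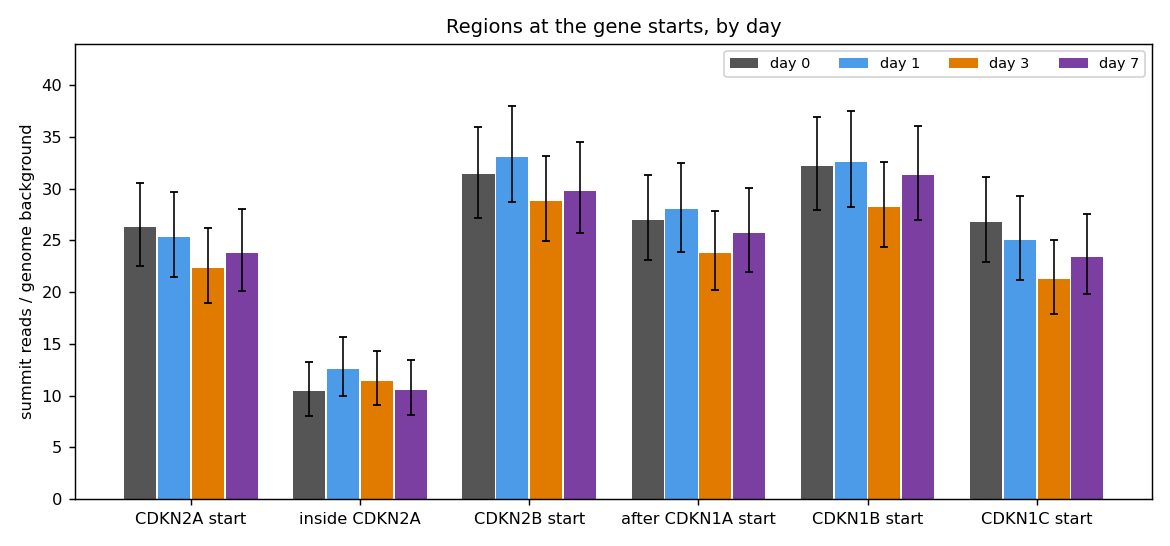
Scaled summits (summit reads in multiples of the list's background) of 6 gene regions on days 0, 1, 3 and 7, with exact Poisson 95% intervals of the reads. The region inside CDKN2A, at 10.4 to 12.6, was lower than the other 5, which ran between 21.3 and 33.1.

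Among the CIP/KIP genes, CDKN1A had no peak over the position given as its start, but 2 regions followed closely. The first, chr6:36646090-36647505, had its summit 2.19 kb after that position, and in GRCh38 the listed CDKN1A promoter lies 2.25 kb after the start that RefSeq gives for the gene as a whole. It held 171, 169, 160 and 157 reads, scaled to 27.0, 28.0, 23.8 and 25.7 on days 0, 1, 3 and 7. The second, chr6:36647745-36648872, 4.10 kb after the start, held 157, 149, 149 and 145 reads, scaled to 24.8, 24.7, 22.1 and 23.8. Ratios of the first were 1.04 (0.834 to 1.29), 0.882 (0.707 to 1.10) and 0.955 (0.764 to 1.19) on days 1, 3 and 7, and those of the second 0.996, 0.895 and 0.960. Both CDKN1A regions were thus within counting error of day 0.

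CDKN1B encodes p27. The start region, chr12:12869283-12870697, held 204, 197, 190 and 191 reads, scaled to 32.2, 32.6, 28.2 and 31.3. Ratios to day 0 were 1.01 (0.829 to 1.24), 0.878 (0.717 to 1.08) and 0.973 (0.795 to 1.19). A second region on every day, chr12:12867240-12867986, 2.57 kb before the start, held 114, 101, 112 and 115 reads. Between them, chr12:12868391-12868622 had a peak on day 7 only, with 77 reads over a local background of 41.3. It was the 1 region within 5 kb of a start, of 9, that was not on all 4 days.

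CDKN1C, the imprinted gene for p57, had a start region at chr11:2905234-2907547 that held 170, 151, 143 and 143 reads, scaled to 26.8, 25.0, 21.3 and 23.4. Ratios to day 0 were 0.932 (0.744 to 1.17), 0.793 (0.631 to 0.997) and 0.875 (0.695 to 1.10). Day 3 was the lowest ratio of the 6 plotted gene regions and the only one of theirs whose interval lay below 1. The day 3 ratio was 0.841 with no scaling or scaled by the median region, and 0.906 by fold. No interval was computed for those settings. Beside it, chr11:2909602-2909902, 2.75 kb before the start, held 121, 121, 120 and 118 reads.

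At the height of these start regions, few regions anywhere in the genome moved past the limit. Over the 8721 regions with a peak on every day whose day 0 summit had at least 167 reads, the height of the lowest region over or just after a gene start (the one inside CDKN2A not counted), 0.0344%, 0.115% and 0.0459% were called in either direction on days 1, 3 and 7. The windows held 9 of these regions and 0 were called. The SD of the log2 ratio over the 8721 was 0.08 to 0.09, against 0.15 for independent Poisson counts of that height, so these summits varied less between days than read counting alone would give. The intervals given for the gene starts are thus wider than that spread. A ratio within counting error there does not show that a start was unchanged. The highest summits anywhere were 283, 287, 282 and 264 reads. Duplicate removal is not given in these sources, and its part in the flat starts was not tested. The median ratio of the tall regions was 1.02, 0.902 and 0.954 on days 1, 3 and 7, so a ratio below 1 on day 3 was common to regions of that height across the genome. Among them the CDKN1C start stood low: 5.22%, 1.96% and 7.57% of the tall regions had a lower ratio on days 1, 3 and 7. The CDKN2A outer start had 12.9% of them below it on day 3, the CDKN1B start 30.5%, the region after the CDKN1A start 33.7% and the CDKN2B start 63.8%.

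**Figure D2:**
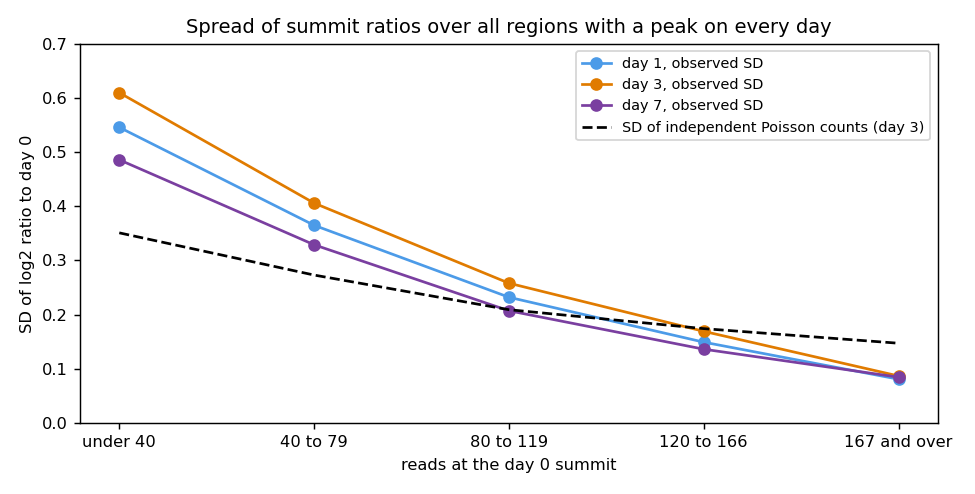
SD of the log2 ratio to day 0 over all regions with a peak on every day, in bins of day 0 summit reads (x axis), for days 1, 3 and 7. The dashed line is the SD that independent Poisson counts would give on day 3. The observed SD was 0.49 to 0.61 under 40 reads and 0.08 to 0.09 at 167 reads and over.

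More peaks were listed in the windows after induction. Together they held 61, 86, 85 and 75 peaks on days 0, 1, 3 and 7, or 1.41, 1.39 and 1.23 times day 0 on the induced days, against 1.36, 1.46 and 1.28 times for the series. The INK4 window held 11, 23, 19 and 21 peaks, the CDKN1A window 20, 28, 31 and 21, the CDKN1B window 16, 22, 22 and 20, and the CDKN1C window 14, 13, 13 and 13. The INK4 window had 2.09, 1.73 and 1.91 times its day 0 number, the largest increase of the 4, and the CDKN1C window had none. That contrast depended on peaks of low fold (summit over local background). With a fold of at least 4, the INK4 window held 7, 10, 12 and 9 peaks and the CDKN1C window 1, 4, 3 and 3. The CDKN1A window then held 5, 7, 7 and 5, and the CDKN1B window 11, 9, 10 and 10. A low fold is not a low summit: on day 0 this limit dropped the CDKN1C start, with 170 reads and a fold of 3.57. The highest region of the CDKN1C window passed it on day 1, from 3.97 to 4.12, while its reads went from 180 to 171. Covered length was 7.95, 13.2, 12.5 and 13.4 kb of the INK4 window on days 0, 1, 3 and 7. At CDKN1A the count on day 7 was back near day 0. Within 20 kb of a gene start the 4 windows held 19, 21, 22 and 20 peaks, so the added peaks lay mostly farther out.

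**Figure D3:**
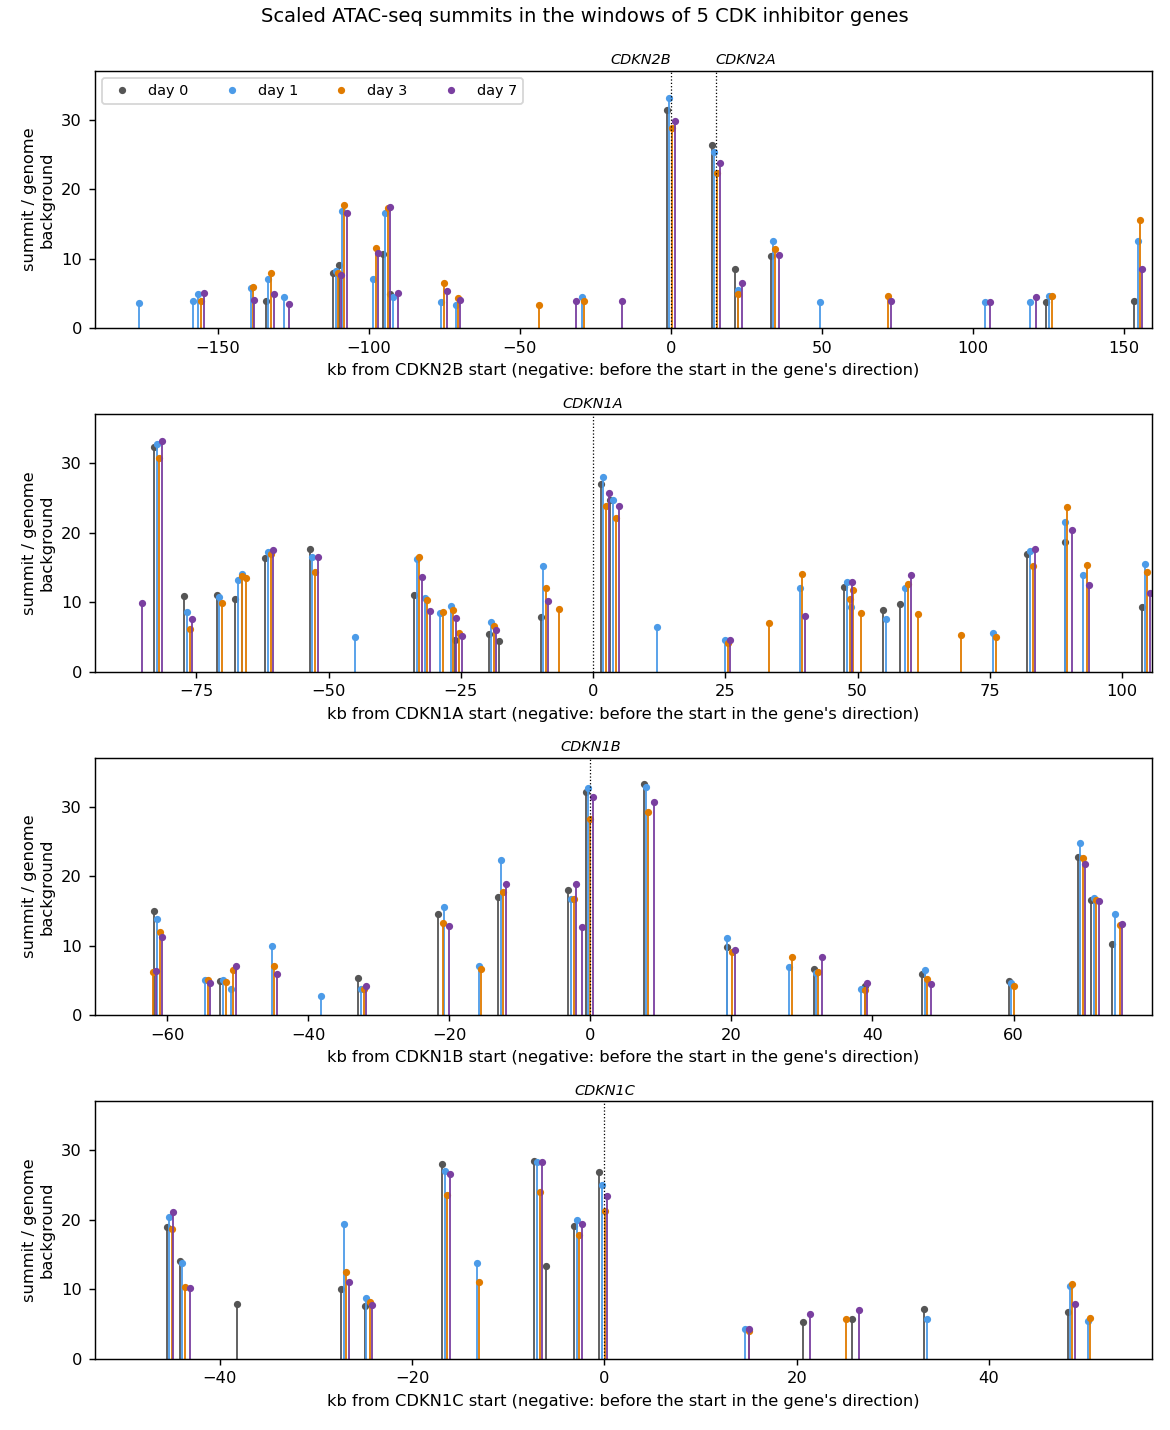
Scaled summits of all merged regions by distance from a gene start in kb, in the gene's direction, in the 4 windows. Each stem is 1 region on 1 day (day 0 grey, day 1 blue, day 3 orange, day 7 purple), and dotted lines mark gene starts. Tall stems at the starts are present on all 4 days, and low stems without a day 0 partner lie mainly away from them.

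Counted by region, the share with no day 0 peak was near that of the series. It was 33 of 86 regions with a day 1 peak (38.4%; 36.3% over all regions), 33 of 84 on day 3 (39.3%; 41.8%) and 24 of 73 on day 7 (32.9%; 35.2%). A peak on all 3 induced days with none on day 0, here called a sustained gain, was found in 15 of 106 regions (14.2%; 13.1% over all regions). A peak on all 4 days was found in 45 of 106 (42.5%; 41.6%). The windows differed among themselves: 16 of 27 regions around CDKN2A and CDKN2B (59.3%) and 4 of 18 around CDKN1C (22.2%) had no day 0 peak, with 17 of 36 at CDKN1A (47.2%) and 9 of 25 at CDKN1B (36%). Over the series it was 46.2%. These are counts of small numbers of regions from 1 list per day.

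**Figure D4:**
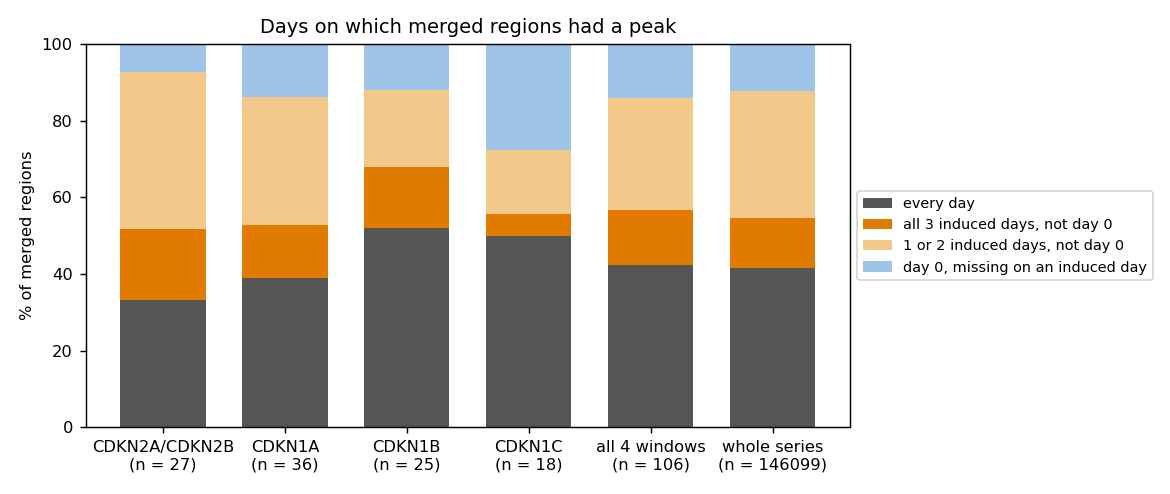
Share of merged regions (%) by the days on which they had a peak, for each window, the 4 windows together and the whole series, with the number of regions under each bar. Regions on every day made up 33.3% of the INK4 window and 50% of the CDKN1C window, against 41.6% of the series.

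Of the 15 sustained gains, 0 were within 5 kb of a start and 1 was within 20 kb. Of all 106 regions of the windows, 9 were within 5 kb and 26 within 20 kb, and of the 45 regions on every day, 8 and 17. With so few regions near a start, the counts do not set the gains apart from the other regions. Distances are to the inhibitor genes only, and no distal region was assigned to a gene. The neighbouring protein-coding genes are MTAP and DMRTA1 for the INK4 pair and SRSF3 and RAB44 for CDKN1A. They are GPR19 and APOLD1 for CDKN1B, and KCNQ1 and SLC67A1 for CDKN1C. The INK4 window held 5 of the sustained gains, all before CDKN2B. At chr9:22107168-22107746, 98.1 kb before CDKN2B and the highest of them, summits held 43, 78 and 66 reads on days 1, 3 and 7, scaled to 7.12, 11.6 and 10.8. The others were lower: chr9:22084382-22085055 held 23, 44 and 33 reads, chr9:22147659-22148666 held 35, 40 and 25, chr9:22165024-22165531 held 30, 26 and 31, and chr9:22080048-22080441 held 20, 29 and 25. Of these 5, 4 were highest on day 3 and 1 on day 7.

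In the CDKN1A window, sustained gains lay on both sides of the gene, and those after it included the tallest of the 15. At chr6:36736607-36737468, 93 kb after the start, summits held 84, 103 and 76 reads, and at chr6:36683223-36684145, 39.4 kb after it, 73, 95 and 49 reads on days 1, 3 and 7. Before the gene, chr6:36612328-36612937 held 64, 69 and 53 reads and chr6:36617365-36618095 held 57, 60 and 47, at 31.6 and 26.6 kb from the start. The last, chr6:36669143-36669667, held 28 reads on each induced day. All 4 of the taller gains had more reads on day 3 than on days 1 and 7. Scaled by background, 3 of the 5 were highest on day 1 and 2 on day 3.

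The CDKN1B window held 4 sustained gains and the CDKN1C window 1. With a stricter limit on the peak caller's q-value (-log10 q of at least 5), 2 and 0 of them remained. In the CDKN1B window, chr12:12824902-12825645, 45 kb before CDKN1B, was highest on day 1, with 60, 48 and 36 reads on days 1, 3 and 7. The neighbouring chr12:12819086-12819658 ran the other way, with 23, 44 and 43 reads. The other 2 were lower: chr12:12815624-12816121 held 31, 34 and 28 reads and chr12:12908691-12909083 held 23, 24 and 28. In the CDKN1C window, chr11:2891959-2892538, 14.7 kb after the start, held 26, 27 and 26 reads, and was the only sustained gain within 20 kb of a start. Over the 15, 6 had their highest scaled summit on day 1, 6 on day 3 and 3 on day 7, against 25.8%, 58.5% and 15.7% of the 19074 sustained gains of the series. The order of days 1 and 3 rested partly on the scaling. In reads, chr12:12815624-12816121 and chr11:2891959-2892538 were higher on day 3 than on day 1. The background was 0.953 and 1.06 times day 0 on days 1 and 3. The median read ratio of regions on every day was 1.01 and 1. The median scaled summits of the 15 were 5.13, 6.54 and 5.41 on days 1, 3 and 7, against 6.62, 8.03 and 6.39 in the series.

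Of the regions open on both days, those called higher were 8 of 53 on day 1 (15.1%; 8.60% over all regions), 7 of 51 on day 3 (13.7%; 7.78%) and 3 of 49 on day 7 (6.12%; 5.66%). All of them had a peak on all 4 days and none was at a gene start. The INK4 window supplied 4 of 11, 4 of 10 and 3 of 10 on days 1, 3 and 7, and CDKN1B supplied 0. Counted by the deposited fold instead, those past 1.5-fold higher were 4 of 53 on day 1 (7.55%; 4.47% over all regions), 4 of 51 on day 3 (7.84%; 4.51%) and 1 of 49 on day 7 (2.04%; 2.98%). By fold the INK4 window supplied 2, 2 and 1 of them, and CDKN1B 1 on day 3, at chr12:12944660-12945569 with 1.51, a region named after its values were seen. The median log2 ratio of the 45 regions on every day was 0.08, -0.08 and 0.02 on days 1, 3 and 7, against 0.08, -0.08 and -0.04 over the series, so the medians were alike on days 1 and 3 and of opposite sign, both near 0, on day 7. Low regions were called more often, here counted over regions of the series with a peak on every day. Of those under 40 reads on day 0, 24.8%, 23.5% and 19.8% were called higher on days 1, 3 and 7. Of those with 40 to 79 reads, 9.91%, 8.76% and 4.80% were.

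The largest ratios were at the far end of the INK4 window, at chr9:21853908-21855085, 140 kb from the outer CDKN2A start on the side of the gene's 3' end. The neighbouring protein-coding gene on that side is MTAP, so the region cannot be assigned to CDKN2A. It held 25, 76, 105 and 52 reads on days 0, 1, 3 and 7, scaled to 3.94, 12.6, 15.6 and 8.52. The peaks of those days were 387, 996, 1082 and 1071 bp wide. On days 1 and 3 the summit lay at another place in the region than on day 0, so these heights are not those of 1 fixed position. Ratios were 3.19 (2.01 to 5.23), 3.96 (2.54 to 6.40) and 2.16 (1.32 to 3.64). Day 0 was the lowest and day 3 the highest, and the interval of each induced day lay above 1. The local background around it, 6.34, 9.88, 13.8 and 7.70 reads, moved in the same order, and the ratios by fold were 2.00, 2.03 and 1.72.

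Beyond CDKN2B, 3 more regions were called higher. At chr9:22117360-22118513, 108 kb before CDKN2B, summits held 58, 102, 119 and 101 reads, scaled to 9.14, 16.9, 17.7 and 16.6, with ratios of 1.85 (1.32 to 2.59), 1.94 (1.40 to 2.70) and 1.81 (1.30 to 2.55). At chr9:22103032-22103944, 94.1 kb before it, they held 68, 100, 116 and 106 reads, with ratios of 1.54 (1.12 to 2.13), 1.61 (1.18 to 2.20) and 1.62 (1.18 to 2.23). Its day 1 ratio was 1.47 with no scaling and 1.46 scaled by the median region, short of the limit. These 2 kept their height to day 7, unlike the region at the far end. The local background was higher on the induced days beside them too. At the second it was 8.04, 11.4, 16.4 and 15.0 reads, and by fold the ratios were 1.07, 0.880 and 0.876, below 1 on days 3 and 7. At the first the ratios by fold were 1.23, 1.26 and 1.14. Between the 2 lay the sustained gain 98.1 kb before CDKN2B. A neighbour at chr9:22119548-22119991 held 50, 50, 53 and 47 reads, with ratios of 1.05, 1.00 and 0.977, and ratios by fold of 0.724, 0.676 and 0.625. It is named after its values were seen, as a neighbour near its day 0 height. The last, chr9:22141818-22142340, 133 kb before CDKN2B, held 25, 43, 53 and 30 reads, with ratios of 1.81 (1.08 to 3.08), 2.00 (1.22 to 3.36) and 1.25 (0.709 to 2.21).

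Around CDKN1A, the region nearest to the gene to be called higher was chr6:36634650-36635346, 9.18 kb before the start. It held 50, 92, 81 and 62 reads, scaled to 7.88, 15.2, 12.0 and 10.2, with ratios of 1.93 (1.35 to 2.78), 1.53 (1.06 to 2.22) and 1.29 (0.874 to 1.91). At chr6:36748392-36749059, 104 kb after the start, summits held 59, 94, 96 and 69 reads, with ratios of 1.67 (1.20 to 2.36), 1.53 (1.10 to 2.16) and 1.22 (0.847 to 1.75). Both were past the limit on days 1 and 3 and short of it on day 7. By fold the ratios were 1.53, 1.22 and 1.18 at the first and 1.12, 1.07 and 0.929 at the second, whose local background was 24.3, 34.8, 37.3 and 30.8 reads. Just outside the limit, chr6:36610586-36611561, 33.1 kb before CDKN1A, held 70, 98, 111 and 83 reads, with ratios of 1.47, 1.496 and 1.23. This region is named after its values were seen. By fold its ratios were 1.03, 1.10 and 1.04, with a local background of 15.9, 21.9, 23.2 and 18.3 reads.

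In the CDKN1C window, 2 regions were called higher. At chr11:2933777-2934709, 27 kb before the start, summits held 64, 117, 84 and 67 reads, with ratios of 1.92 (1.40 to 2.65), 1.24 (0.884 to 1.74) and 1.09 (0.761 to 1.56). It was past the limit on day 1 only. At chr11:2858232-2858717, 48.5 kb after the start, they held 43, 63, 72 and 48 reads, with ratios of 1.54 (1.03 to 2.32), 1.58 (1.07 to 2.36) and 1.16 (0.753 to 1.79). Its day 1 call ended by fold (1.46), with no scaling (1.47) and scaled by the median region (1.45). Of the 8 regions called higher on day 1 over the 4 windows, 6 had 40 to 79 reads on day 0 and 2 had 25.

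**Figure D5:**
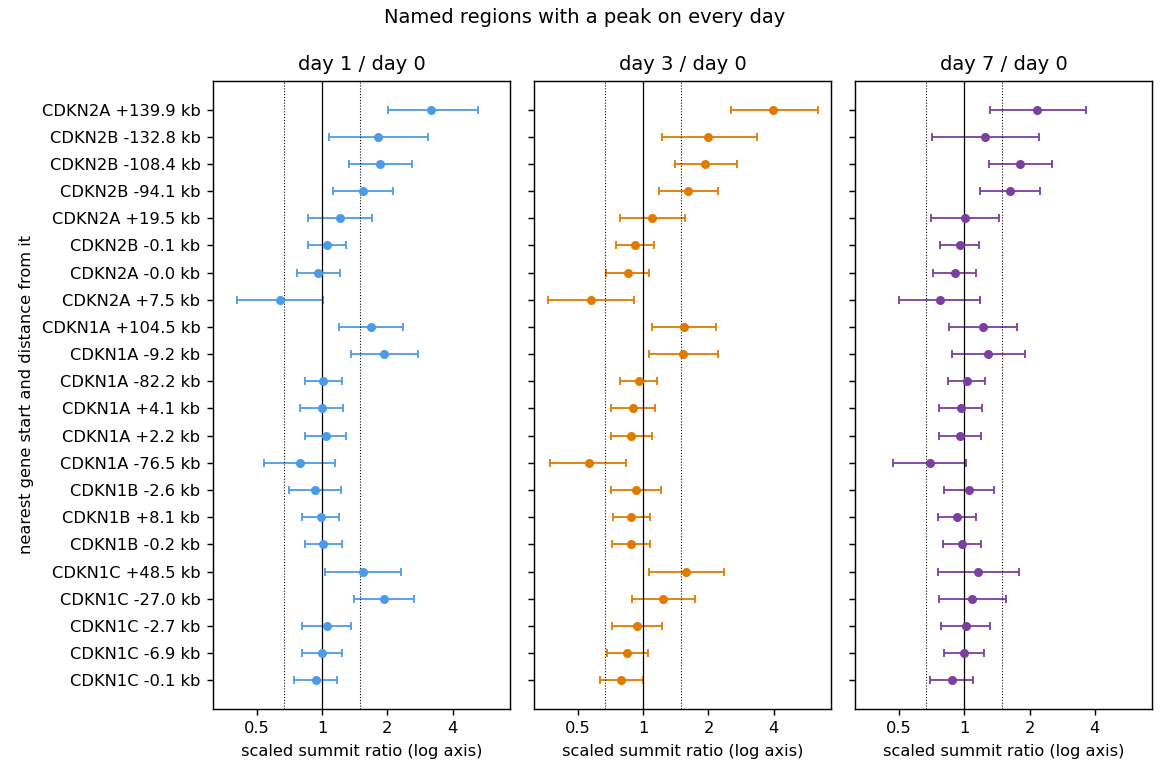
Ratio of scaled summits to day 0 on days 1, 3 and 7 for the named regions with a peak on every day, ordered within each window by the day 3 ratio, with exact 95% intervals for counting error. The axis is logarithmic (base 2), the solid line marks a ratio of 1 and the dotted lines the 1.5-fold limits. Regions at the gene starts lie near 1, and the region 140 kb from CDKN2A is farthest to the right at 3.19, 3.96 and 2.16.

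Called lower were 1 of 53 regions on day 1 (1.89%; 0.496% over all regions), 2 of 51 on day 3 (3.92%; 1.89%) and 0 of 49 on day 7 (1.42% over all regions). The region 7.49 kb into CDKN2A made up 2 of these 3 calls. The other was chr6:36567479-36567910, 76.5 kb before CDKN1A, which held 69, 52, 41 and 46 reads, with ratios of 0.791 (0.541 to 1.15), 0.560 (0.371 to 0.837) and 0.693 (0.467 to 1.02). By fold its ratios were 0.886, 0.819 and 0.912. Past 1.5-fold lower by fold were 1 of 53 on day 1 (1.89%; 0.539% over all regions), 0 of 51 on day 3 (1.46% over all regions) and 2 of 49 on day 7 (4.08%; 1.06%), the last 2 being chr9:22119548-22119991 and chr9:22100681-22100985, the second named after its values were seen. Of the 60 regions with a day 0 peak, 7 had none on day 1 (11.7%; 13.0% over all regions), 9 none on day 3 (15%; 14.6%) and 11 none on day 7 (18.3%; 17.4%). The CDKN1C window had no peak at 4, 5 and 3 of its 14 on days 1, 3 and 7, and the INK4 window at 0, 1 and 1 of its 11.

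In 3 windows the highest scaled summit of any day was not at the inhibitor's own start. In the CDKN1A window it was at chr6:36561140-36562543, with 205, 198, 207 and 202 reads on days 0, 1, 3 and 7. It lay 84.4 kb before the region after the CDKN1A start, and in GRCh38 SRSF3, a splicing factor gene, starts 84.4 kb before the listed CDKN1A promoter. In the CDKN1B window it was on day 0 at chr12:12876771-12879102, 8.13 kb after the start, with 211, 198, 197 and 187 reads. The CDKN1B start, with 204, 197, 190 and 191, was within 1 read of it on day 1 and higher on day 7. In GRCh38 a start of APOLD1 lies 8.55 kb from that of CDKN1B. In the CDKN1C window it was at chr11:2913031-2914474, 6.86 kb before the start, with 180, 171, 161 and 173 reads. Their ratios to day 0 ran between 0.844 and 1.02 over the 3 induced days, within the range of the gene starts.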

How the data were processed

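ATAC-seq of 8 G401 samples was grouped by the day in the sample titles. Per the submitters' processing notes, Bowtie2, deepTools and MACS2 version 2.1.1.20160309 were used with the build hg19. The sources used here do not give the transposase offset, the duplicate filter or any pooling of replicates. The deposited file joins 4 peak lists: 3 match days 1, 3 and 7 in the labels, and the list named ND, an abbreviation with no key in the labels, is the only one left and was used as day 0. All day 0 values rest on that. Per peak, the deposited values of the authors' peak caller are a score (10 times the -log10 q-value), the fold (summit over local background, a ratio), the -log10 p and -log10 q, and the summit offset in bp from the peak's start.

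Summit reads were recovered as the whole number that fits fold and -log10 p together under a Poisson model. All 411408 peaks were recovered within 0.005 of the deposited -log10 p. Recovery and merging were tested on simulated data. The commonest background of a list is its depth measure. Intervals cover counting error only, and PCR copies would make them too narrow. At the height of the gene starts, summits over the genome varied less between days than such counting error, so the intervals were wider than that spread. Library totals are unknown. Median summits of all peaks held 57, 51, 52 and 48 reads on days 0, 1, 3 and 7.

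Named regions overlap a gene or lie within 5 kb of its start, are the highest of their window, are on all 3 induced days with no day 0 peak, or are on every day and past 1.5-fold. The genes, windows and lists were chosen with earlier results of these data known. Alternatives were a stricter q or fold limit, 50% reciprocal overlap, a 20 kb window, other scalings and another choice of summit. Other cell cycle genes, exon annotation and sequences of distal regions were not analysed here, for want of an hg19 annotation. Software was Python 3.11.15, NumPy 2.4.6, pandas 2.3.3, SciPy 1.17.1 and matplotlib 3.10.9. Coordinates are 1-based.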

Additional observations from a re-analysis of the deposited data

How the results depend on the processing

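No paired analysis was possible because the deposited lists hold 1 value per day and none per sample, and leaving out a replicate was not run for the same reason. With a fold of at least 4, the windows held 24, 30, 32 and 27 peaks on days 0, 1, 3 and 7. With a summit within 20 kb of a gene start they held 19, 21, 22 and 20, so the day 0 number was nearly that of the induced days there. New regions at a fold of at least 4 numbered 3, 7 and 4 on days 1, 3 and 7, and 1 on all 3 days. These counts fall by construction, since fewer peaks pass. With a -log10 q of at least 5 or 50% reciprocal overlap, the totals over the 4 windows stayed within 1.5 times. In single windows, 4 counts of new regions moved further at the q limit and 12 did not. Ratios at the 6 gene regions kept their side of the 1.5-fold limit on all 3 induced days under the alternatives run (fold over local background, no scaling, scaling by the median region, and the summit nearest to that of day 0). Of the 21 ratios past the limit, 9 stayed past it under each of these, and the same number did so by fold alone. The ratios at chr9:22103032-22103944 reversed by fold, to 0.880 on day 3 and 0.876 on day 7. The cause was not tested. Summits near the smallest heights of 16 to 18 reads have wide counting error, and a region with no peak on a day may lie just under the caller's limit.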
